A study of Mus musculus with 9 samples.

Results

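The genes described here are 10 members of the transforming growth factor beta (TGF-beta) pathway, taken as a fixed list of names: the ligands Tgfb1, Tgfb2 and Tgfb3, the receptors Tgfbr1, Tgfbr2 and Tgfbr3, the signal carriers Smad2 and Smad3, the inhibitor Smad7 and the matrix target Tgfbi. All 10 were found among the 56620 genes or loci of the deposited table, and 9 of them were abundant enough to be tested. RNA was measured in 9 libraries of primary mouse cells bought as pulmonary microvascular endothelial cells, the lining cells of small lung vessels, and cultured for 48 h. The HO-rWNT5A group (3 libraries) was kept in 85% oxygen with 100 ng/ml of recombinant WNT5A, a secreted WNT ligand. The HO group (3 libraries) was kept in 85% oxygen alone, and the RA group (3 libraries) in room air with 21% oxygen. The labels give no strain, sex, age or passage, and do not say whether replicates were grown separately. The p-values therefore reflect how these libraries scatter, and part of that scatter may be technical.

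TGF-beta ligands are secreted in a latent form, bound to their own cleaved propeptide and to matrix proteins, and act once they are released. The released dimer binds the type II receptor TGFBR2, which phosphorylates the type I receptor TGFBR1, which in turn phosphorylates SMAD2 and SMAD3. These enter the nucleus with SMAD4 and change transcription, including that of Smad7, whose product blocks and degrades the active receptor. In the lung the pathway is known for its part in vessel formation, in the conversion of cells to a contractile or matrix-making state and in fibrosis.

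Levels are given as FPKM, fragment counts divided by transcript length and by library size, summed over the transcripts of a gene and scaled so that the typical gene is equal between libraries. FPKM is a measure per length, so levels of different genes can be set side by side. The depth, estimated roughly from the smallest common step of the values, was 21300000 to 26500000 fragments per library. That puts about 385 to 8262 fragments per library behind each of the 9 tested genes and at most about 13.8 behind Tgfbi. Most endothelial markers were low, against the label of the cells: Pecam1 had 0.0930 ± 0.0350 FPKM, Cdh5 0.0543 ± 0.0176 and Vwf 0.0441 ± 0.0578 (SD, n = 9), and 15 of 20 endothelial markers had a mean under 1 FPKM. Of the other 5, Flt1 had 37.9 ± 4.59 and Emcn 10.1 ± 1.12 (SD, n = 9). Of 10 pericyte and smooth muscle markers, 7 had a mean of at least 5 FPKM, with Acta2 at 1574 ± 144, while Myh11 had 0.236 ± 0.0398 (SD, n = 9). Of 10 fibroblast markers, 3 had a mean of at least 5 FPKM, with Col1a1 at 183 ± 23.2, and 7 a mean under 1, with Pdgfra at 0.664 ± 0.111 (SD, n = 9). Of 11 epithelial markers, 3 had a mean of at least 5, with Krt18 at 54.7 ± 5.68, and 6 a mean under 1. Epcam had 1.88 ± 0.532 and Cdh1 3.78 ± 0.597 (SD, n = 9). Of 6 mesothelial markers, 2 had a mean of at least 5, with Wt1 at 23.4 ± 3.40, and 4 a mean under 1, with Msln at 0.449 ± 0.125 (SD, n = 9). Of 10 leukocyte and macrophage markers, 0 had a mean of at least 5. In bulk RNA, fewer cells of a kind and less RNA per cell cannot be told apart.

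None of the 9 tested members passed limma's threshold, a Benjamini-Hochberg adjusted p of 0.05 over 13831 genes, in any of the 3 comparisons. The background was 1.97% of genes past the threshold in HO against RA (1.21% higher and 0.766% lower), 0.00723% in HO-rWNT5A against HO (0% higher and 0.00723% lower) and 4.26% in HO-rWNT5A against RA (2.39% higher and 1.87% lower). At an unadjusted p under 0.05, 1 member was reached in HO against RA, 1 in HO-rWNT5A against HO and 3 in HO-rWNT5A against RA. Over all genes that looser rule took 18.1%, 9.2% and 20.9% of genes in the same comparisons. The coefficient of variation over all 9 libraries was lowest for Smad3, at 2.58%, and highest among tested members for Tgfbr2, at 10.7%.

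**Figure D1:**
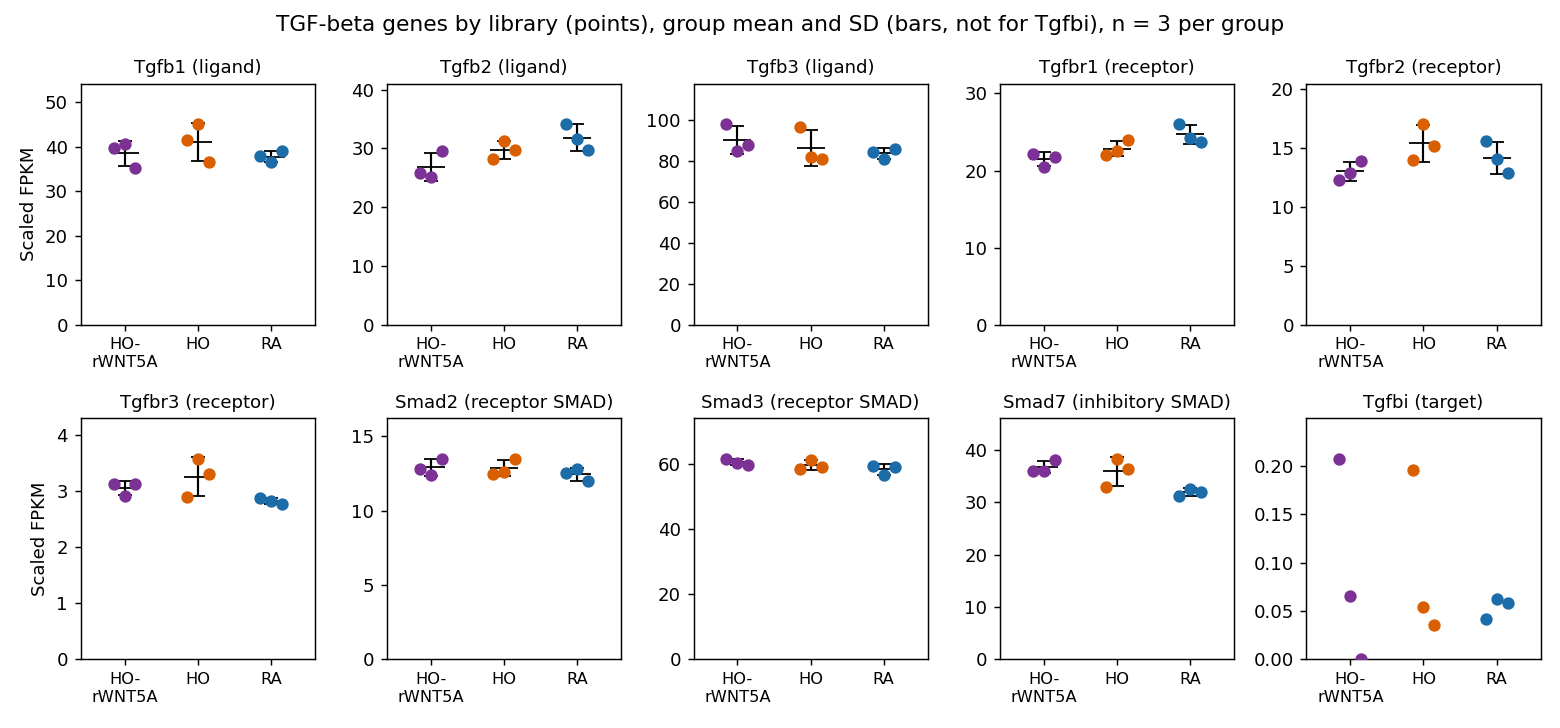
Scaled FPKM (y axis, from 0, a scale of its own in each panel) of the 10 genes in the HO-rWNT5A, HO and RA libraries (x axis); points are libraries and bars the group mean and SD of 3 libraries, left out for Tgfbi. Smad7 and Tgfbr3 in the HO-rWNT5A and HO libraries lie above RA, as does Smad3 in HO-rWNT5A. In HO-rWNT5A, Tgfb2 and Tgfbr1 lie below RA and Tgfbr2 below HO. The gaps of Smad3, Tgfb2 and Tgfbr2, and of Tgfbr3 in HO, are narrow. Over all genes, 21.4% did not overlap in HO against RA, 13% in HO-rWNT5A against HO and 32.8% in HO-rWNT5A against RA. The Tgfbi panel reaches only 0.207 FPKM.

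The order of the levels, by the mean over 9 libraries, was Tgfb3, Smad3, Tgfb1, Smad7, Tgfb2, Tgfbr1, Tgfbr2, Smad2, Tgfbr3 and Tgfbi. The means of the 9 tested genes were 86.8, 59.7, 39.1, 34.8, 29.5, 23.0, 14.2, 12.7 and 3.04 FPKM in that order, and Tgfbi reached at most 0.207. The ranges of neighbours overlapped for Tgfb1 and Smad7, Smad7 and Tgfb2, Tgfb2 and Tgfbr1, and Tgfbr2 and Smad2. Within libraries, Tgfb2 lay above Tgfbr1 in 9 of 9, and the first gene of each of the other pairs lay above the second in 8 of 9. Tgfb3 lay above 96.4% of the genes tested, and Tgfbr3 above 26.9%.

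Tgfb3 (chromosome 12, 86056745 to 86079041, GRCm38) was the most abundant ligand gene. It had 98.2, 84.7 and 87.9 FPKM in the HO-rWNT5A libraries, 96.5, 81.8 and 81.0 in HO and 84.4, 80.8 and 85.9 in RA. Replicate 1 was the highest library in both HO-rWNT5A and HO, and the 3 groups overlapped. Tgfb3 made up 58.0% ± 1.85 of the summed ligand FPKM in HO-rWNT5A, 54.9% ± 3.21 in HO and 54.6% ± 0.875 in RA (SD, n = 3 each). The table lists a single Tgfb3 transcript, so its level does not depend on how fragments were shared out between transcripts.

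Tgfb1 (chromosome 7, 25687002 to 25705077), the ligand most studied in fibrosis, had 39.7, 40.5 and 35.2 FPKM in HO-rWNT5A, 41.4, 45.1 and 36.6 in HO and 37.9, 36.5 and 38.9 in RA. HO was the most scattered group and held the highest Tgfb1 library, and each group overlapped both others. Tgfb1 was 24.7% ± 1.98 of ligand FPKM in HO-rWNT5A, 26.1% ± 2.09 in HO and 24.6% ± 0.512 in RA (SD, n = 3 each).

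Tgfb2 (chromosome 1, 186622792 to 186705989) encodes the ligand that binds TGFBR2 weakly unless the co-receptor TGFBR3 presents it. It had 25.8, 25.2 and 29.5 FPKM in HO-rWNT5A, 28.2, 31.3 and 29.8 in HO and 34.2, 31.6 and 29.7 in RA. The HO-rWNT5A libraries all lay below the RA libraries, at the nearest by 29.5 against 29.7, and the HO libraries overlapped both. Tgfb2 was 17.3% ± 1.85 of ligand FPKM in HO-rWNT5A, 19.0% ± 1.77 in HO and 20.8% ± 1.38 in RA (SD, n = 3 each). The summed ligand level was 156 ± 7.13 FPKM in HO-rWNT5A, 157 ± 9.41 in HO and 153 ± 3.96 in RA (SD, n = 3 each), with overlapping groups.

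Tgfb2 was made in a pair of coding forms that differ by an exon of 84 bases, or 28 codons, at chr1:186690721-186690804 (GRCm38, minus strand), in the part of the gene that encodes the propeptide. The sequences are shown because this exon is what tells the forms apart. They are spliced transcript sequence from GENCODE M21, with the exon in capitals and 18 bases of each neighbouring exon in lower case.
Tgfb2-206: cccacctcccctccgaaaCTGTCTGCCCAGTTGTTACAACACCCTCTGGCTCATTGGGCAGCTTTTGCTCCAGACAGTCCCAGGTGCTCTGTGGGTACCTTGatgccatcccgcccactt
Tgfb2-201: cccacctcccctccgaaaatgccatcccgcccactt

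The shorter reading frame, Tgfb2-201, held 69.2% of the gene's FPKM and the form with the exon, Tgfb2-206, held 23.0%. Of the sum of both forms, Tgfb2-206 was 22.1%, 21.9% and 25.8% in the HO-rWNT5A libraries, 25.7%, 27.4% and 23.7% in HO and 25.6%, 25.5% and 26.0% in RA. Replicate 3 of HO-rWNT5A lay within the range of the other groups, while the other two HO-rWNT5A libraries lay below all of HO and RA. Tgfb2-206 itself had 5.36, 5.03 and 7.01 FPKM in HO-rWNT5A, against 7.83, 7.28 and 7.08 in RA, with limma adjusted p = 0.418 over 26158 transcripts. These shares are the authors' StringTie estimates, and the forms also differ in their ends (3485 bases in all for Tgfb2-206 and 5116 for Tgfb2-201).

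Tgfbr1 (chromosome 4, 47353222 to 47414931), the type I receptor kinase, had 22.1, 20.4 and 21.8 FPKM in HO-rWNT5A, 22.1, 22.5 and 23.9 in HO and 26.1, 24.3 and 23.7 in RA. Every HO-rWNT5A library lay below every RA library, with HO overlapping both. Of its 5 listed transcripts, Tgfbr1-201 held 91.9% of the FPKM.

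Tgfbr2 (chromosome 9, 116084293 to 116175360), the type II receptor kinase that binds the ligand first, had 12.3, 12.9 and 13.9 FPKM in HO-rWNT5A, 14.0, 17.1 and 15.2 in HO and 15.6, 14.1 and 12.9 in RA. The HO-rWNT5A libraries lay below the HO libraries, though the highest HO-rWNT5A library and the lowest HO library were 13.9 and 14.0, and both groups overlapped RA. The ratio of Tgfbr1 to Tgfbr2 FPKM was 1.65 ± 0.133 in HO-rWNT5A, 1.49 ± 0.150 in HO and 1.75 ± 0.0857 in RA (SD, n = 3 each).

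Tgfbr2 also came as a pair of coding forms, set apart by an exon of 75 bases, or 25 codons, at chr9:116158271-116158345 (GRCm38, minus strand), in the part that encodes the start of the mature extracellular domain. The exon is again in capitals, between 18 bases of each neighbouring exon, since its presence defines the longer receptor form.
Tgfbr2-202: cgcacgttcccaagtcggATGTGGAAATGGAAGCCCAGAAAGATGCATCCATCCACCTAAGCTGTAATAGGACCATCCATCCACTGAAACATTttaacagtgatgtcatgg
Tgfbr2-201: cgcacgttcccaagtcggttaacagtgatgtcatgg

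In Tgfbr2 the form with the exon was the major one, the opposite of Tgfb2. Tgfbr2-202 was 90.3%, 81.6% and 83.6% of the sum of both forms in HO-rWNT5A, 82.9%, 80.1% and 85.6% in HO and 85.1%, 83.1% and 91.9% in RA. The 3 groups overlapped, and the highest shares came from single libraries of HO-rWNT5A and RA in which Tgfbr2-201 was down to 1.19 and 1.04 FPKM. Here too the forms differ in their ends (8092 and 3476 bases in all), so the split rests on more than the exon shown.

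**Figure D2:**
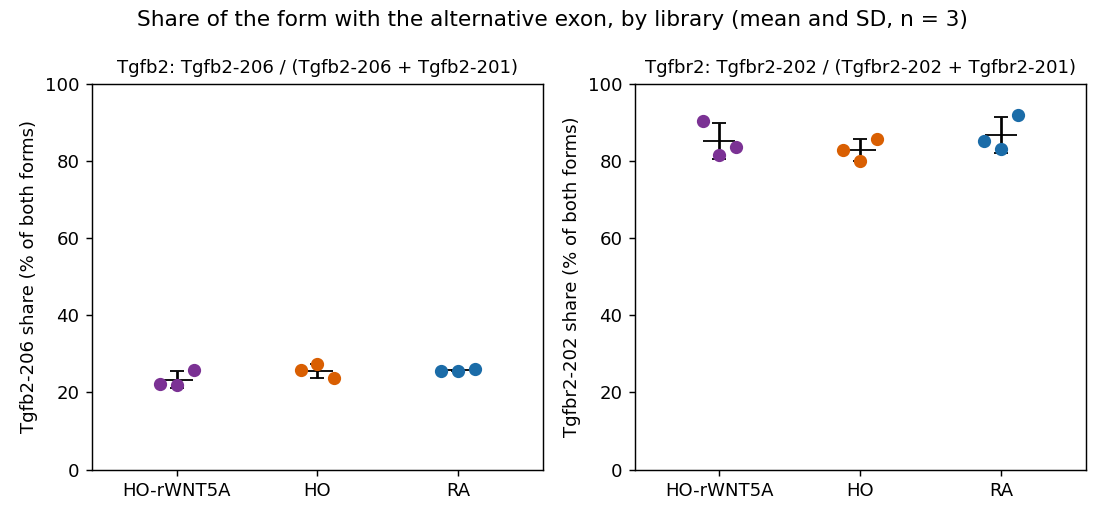
Share (y axis, percent of the FPKM of both forms) of Tgfb2-206 (left) and Tgfbr2-202 (right), the forms with the alternative exon, in the HO-rWNT5A, HO and RA libraries (x axis); points are libraries, bars the mean and SD of 3. Tgfb2-206 lies between 21.9% and 27.4% and Tgfbr2-202 between 80.1% and 91.9%.

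Tgfbr3 (chromosome 5, 107106570 to 107289629) encodes betaglycan, the co-receptor that presents ligand, TGF-beta 2 above all. It had 3.12, 2.91 and 3.12 FPKM in HO-rWNT5A, 2.88, 3.57 and 3.30 in HO and 2.88, 2.82 and 2.77 in RA. RA was the tightest and lowest group and overlapped neither other group, though the lowest HO library and the highest RA library were both 2.88 after rounding. Among the tested members it was the least abundant.

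Smad3 (chromosome 9, 63646767 to 63757994), a receptor-activated SMAD that binds DNA directly, had 61.8, 60.6 and 59.8 FPKM in HO-rWNT5A, 58.7, 61.4 and 59.4 in HO and 59.7, 56.7 and 59.1 in RA. The HO-rWNT5A and RA libraries did not overlap but came within a narrow margin, at 59.8 against 59.7. Smad2 (chromosome 18, 76241580 to 76310963), the other receptor-activated SMAD, whose main form does not bind DNA by itself, had 12.8, 12.4 and 13.5 FPKM in HO-rWNT5A, 12.5, 12.6 and 13.5 in HO and 12.5, 12.8 and 11.98 in RA, with all groups overlapping. Smad3 exceeded Smad2 in every library, with a ratio of 4.71 ± 0.244 in HO-rWNT5A, 4.66 ± 0.243 in HO and 4.71 ± 0.255 in RA (SD, n = 3 each).

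The transcripts that made up each SMAD gene were mostly a single coding form. Smad3-201 held 85.2% of Smad3 FPKM, and the short non-coding Smad3-203 12.3%. Smad2-205, with 11 exons, held 79.2%, and the 8-exon form Smad2-203 held 12.4%.

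Smad7 (chromosome 18, 75367529 to 75395935), the inhibitory SMAD that pathway activity itself induces, had 36.0, 35.9 and 38.1 FPKM in HO-rWNT5A, 32.9, 38.3 and 36.3 in HO and 31.1, 32.6 and 32.0 in RA. All 3 libraries of HO-rWNT5A and all 3 of HO lay above the 3 of RA, by the least for HO replicate 1. Smad7-201 held 90.4% of the gene's FPKM.

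Tgfbi (chromosome 13, 56609523 to 56639562), which encodes a secreted matrix protein first found as a transcript induced by TGF-beta, was at the edge of detection. It had 0.207, 0.0658 and 0 FPKM in HO-rWNT5A, 0.196, 0.0543 and 0.0360 in HO and 0.0417, 0.0623 and 0.0580 in RA. It stayed under the minimum of 1 FPKM and was not tested, and 90.1% of what there was came from Tgfbi-204, a form annotated for nonsense-mediated decay. No fold change is given at this depth.

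HO against RA asked what oxygen at 85% did to these genes. Of the 9 tested, 0 passed in limma, 7 had a positive and 2 a negative log2 difference, and the median was 0.04, beside -0.004 for all genes tested. On FPKM as deposited that median was -0.01, beside -0.06 for all genes. Smad7 averaged 35.8 ± 2.70 FPKM in HO and 31.9 ± 0.758 in RA (SD, n = 3 each), a log2 difference of 0.16 ± 0.062 (SE, limma adjusted p = 0.202). Tgfbr3 averaged 3.25 ± 0.348 in HO and 2.82 ± 0.0542 in RA (log2 difference 0.15 ± 0.079, limma adjusted p = 0.347). With 1 library left out, the difference of Smad7 was 0.113 to 0.22 and that of Tgfbr3 0.095 to 0.215, in both lowest without HO replicate 2 and highest without HO replicate 1. For these 2 members the groups did not overlap, with HO higher, beside 21.4% of all genes without overlap (11.3% higher and 10.1% lower). The 95% confidence intervals of the 9 members, not adjusted for their number, reached from 0.834-fold at the lowest (Tgfb2) to 1.25-fold at the highest (Tgfbr3).

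HO-rWNT5A against HO asked what added WNT5A did in high oxygen. Of the 9 tested, 0 passed in limma, 4 had a positive and 5 a negative log2 difference, and the median was -0.07, beside 0.002 for all genes. Tgfbr2 averaged 13.03 ± 0.836 FPKM in HO-rWNT5A and 15.4 ± 1.57 in HO (SD, n = 3 each), a log2 difference of -0.22 ± 0.088 (SE, limma adjusted p = 0.503). Without HO replicate 2 the difference was -0.149 and without HO replicate 1 it was -0.287, the ends of its range with 1 library left out. Tgfbr2 was the single member with an unadjusted p under 0.05 and the single one whose groups did not overlap. Over all genes, 13% did not overlap (6.27% with HO-rWNT5A higher and 6.7% with it lower). The gene of the added protein, Wnt5a, had 27.8 ± 1.47 FPKM in HO-rWNT5A and 29.1 ± 2.005 in HO (SD, n = 3 each; limma adjusted p = 0.807). The intervals of the members, again as folds of scaled FPKM + 1, reached from 0.749-fold (Tgfbr2) to 1.18-fold (Tgfb3).

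HO-rWNT5A against RA joined both changes and shares its RA libraries with HO against RA and its HO-rWNT5A libraries with HO-rWNT5A against HO. Of the 9 tested, 0 passed in limma, with 6 positive and 3 negative log2 differences and a median of 0.05, beside -0.004 for all genes. On FPKM as deposited the median was -0.01, beside -0.06 for all genes. Tgfbr1 came nearest to the threshold, with 21.4 ± 0.914 FPKM in HO-rWNT5A and 24.7 ± 1.23 in RA (SD, n = 3 each), a log2 difference of -0.19 ± 0.059 (SE, limma adjusted p = 0.0917). Smad7 averaged 36.7 ± 1.23 in HO-rWNT5A and 31.9 ± 0.758 in RA (log2 difference 0.20 ± 0.062, limma adjusted p = 0.101). Tgfb2 averaged 26.9 ± 2.34 in HO-rWNT5A and 31.8 ± 2.25 in RA (log2 difference -0.24 ± 0.076, limma adjusted p = 0.104). The groups did not overlap for 5 members, with Smad3, Smad7 and Tgfbr3 higher and Tgfb2 and Tgfbr1 lower in HO-rWNT5A, though the log2 difference of Smad3 was 0.05 here and -0.01 on FPKM as deposited. The background was 32.8% of all genes without overlap (16.3% higher and 16.5% lower). The intervals, as folds of scaled FPKM + 1, reached from 0.754-fold (Tgfb2) to 1.26-fold (Smad7). On FPKM as deposited, Tgfb2 and Tgfbr1 passed as lower (limma adjusted p = 0.0338 and 0.0412), where 5.96% of all genes passed (1.51% higher and 4.45% lower). With the 2 compared groups fitted alone Smad7 passed as higher (limma adjusted p = 0.0304), where 9.62% of all genes passed (5.1% higher and 4.51% lower). With 1 library left out, the difference of Tgfb2 was -0.307 to -0.187, that of Tgfbr1 -0.22 to -0.155 and that of Smad7 0.169 to 0.211. Summed fibroblast and mesothelial markers were both lower in every HO-rWNT5A library than in every RA library. The endothelial, pericyte and smooth muscle, epithelial and leukocyte sums overlapped between these groups. Most of the fibroblast sum was Col1a1, with a mean of 183, and Col1a1, Col1a2 and Col3a1 are also among the pathway targets described below. Most of the mesothelial sum was Wt1, with a mean of 23.4. Summed FPKM of 10 fibroblast markers (3 with a mean of at least 5, Pdgfra at 0.664) was 191 to 263.8 in HO-rWNT5A, 214 to 266 in HO and 263.9 to 282 in RA. That of 6 mesothelial markers (2 with a mean of at least 5, Msln at 0.449) was 29.8 to 32.2 in HO-rWNT5A, 26.4 to 29.6 in HO and 33.0 to 36.7 in RA. The part of these markers in the members' values was not tested.

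**Figure D3:**
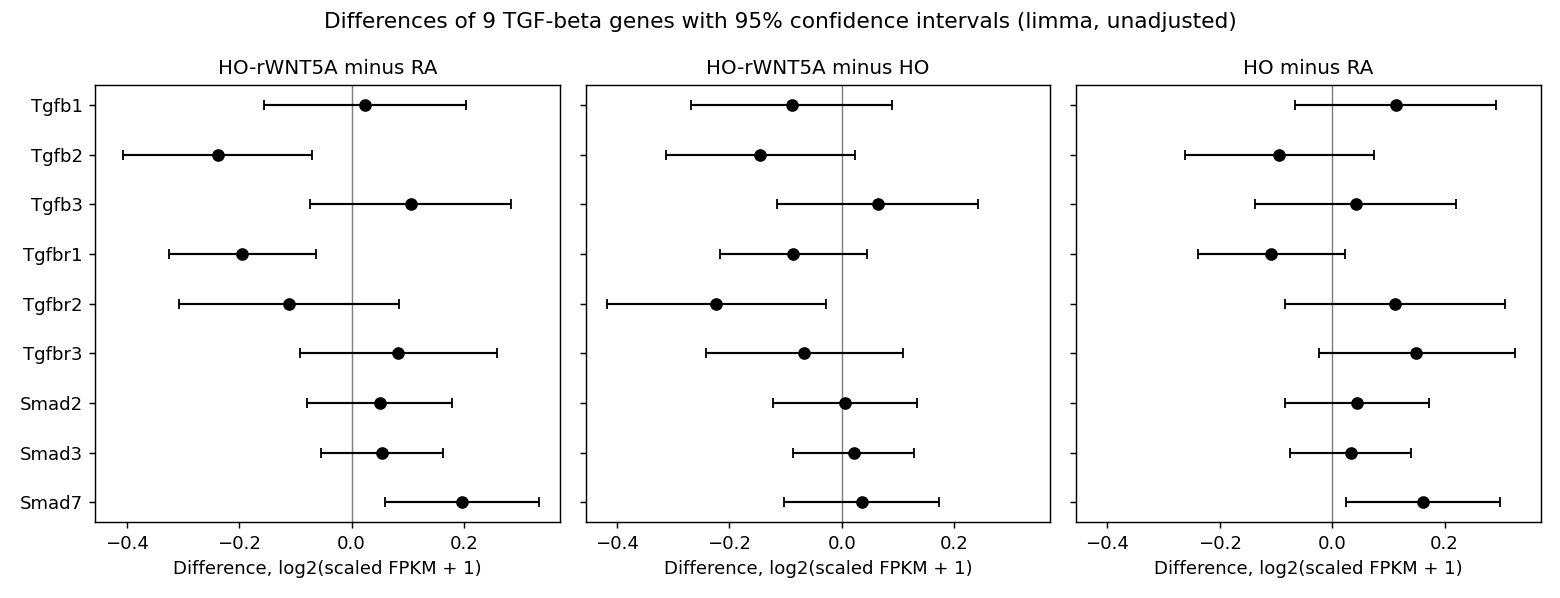
Difference (x axis, log2 of scaled FPKM + 1) of the 9 tested genes (rows) for HO-rWNT5A minus RA, HO-rWNT5A minus HO and HO minus RA; points are limma estimates and lines unadjusted 95% confidence intervals. The estimates lie between -0.24 and 0.20, and the intervals that leave out 0 are those of Tgfb2, Tgfbr1 and Smad7 in HO-rWNT5A minus RA, Tgfbr2 in HO-rWNT5A minus HO and Smad7 in HO minus RA.

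Of 45 transcripts listed for the 10 genes, 17 had a mean of at least 1 FPKM and were tested. None passed in limma in any of the 3 comparisons. The share of all transcripts past the threshold was 0.0153% in HO against RA, 0.0115% in HO-rWNT5A against HO and 0.0382% in HO-rWNT5A against RA. The lowest adjusted p of a member transcript was that of Smad7-201 in HO-rWNT5A against RA (limma adjusted p = 0.334). It had 33.0, 31.9 and 34.4 FPKM in HO-rWNT5A and 28.0, 28.7 and 28.1 in RA.

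The rest of the pathway was described with a list of 81 other genes in 6 roles, of which 70 were tested. None of the 70 rose or fell past limma's threshold in any of the 3 comparisons, against the background shares given above. At an unadjusted p under 0.05 there were 17 in HO against RA (24.3% of the 70, beside 18.1% of all genes), 2 in HO-rWNT5A against HO (2.86% beside 9.2%) and 24 in HO-rWNT5A against RA (34.3% beside 20.9%). The median log2 differences of the 70 were 0.033, -0.001 and 0.026, beside -0.004, 0.002 and -0.004 for all genes tested. On FPKM as deposited they were -0.026, -0.008 and -0.038, beside -0.057, -0.004 and -0.062 for all genes.

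Among genes of latency and activation, 14 of 17 were tested and 0 passed. Ltbp1 and Ltbp2 encode latent TGF-beta binding proteins, which tie the latent ligand to the matrix. Ltbp1 averaged 11.97 ± 0.499 FPKM in HO and 9.92 ± 0.469 in RA (SD, n = 3 each; log2 difference 0.25 ± 0.060, limma adjusted p = 0.068). Ltbp2 averaged 16.9 ± 1.01 in HO-rWNT5A, 16.5 ± 0.532 in HO and 14.1 ± 0.613 in RA. For HO-rWNT5A against RA its log2 difference was 0.24 ± 0.061 (limma adjusted p = 0.0541), the lowest adjusted p of the 70 genes in that comparison. For HO against RA it was 0.21 ± 0.061 (limma adjusted p = 0.116). Furin, a protease that cleaves the ligand precursor, averaged 45.4 ± 2.11 in HO-rWNT5A, 43.4 ± 2.69 in HO and 38.8 ± 2.44 in RA. Its limma adjusted p was 0.091 for HO-rWNT5A against RA. In HO-rWNT5A against HO the smallest p values of this role were those of Ltbp4, with 3.40 ± 0.276 in HO-rWNT5A and 4.11 ± 0.498 in HO, and Ltbp3, with 59.0 ± 5.27 in HO-rWNT5A and 66.4 ± 6.50 in HO (limma adjusted p = 0.541 and 0.557).

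Of 10 other receptors and receptor partners, 7 were tested and 0 passed. The type I receptor gene Acvr1 averaged 28.7 ± 1.58 FPKM in HO and 25.5 ± 1.21 in RA (SD, n = 3 each; limma adjusted p = 0.194). Fkbp1a, which encodes a protein that holds type I receptors inactive, averaged 176 ± 4.78 in HO-rWNT5A and 188 ± 12.7 in RA (limma adjusted p = 0.488). Acvr2b, an activin type II receptor gene, averaged 1.78 ± 0.245 in HO and 1.97 ± 0.260 in RA (limma adjusted p = 0.666). The endothelial TGF-beta receptor genes Acvrl1 and Eng, chosen after their values were seen, had 0.237 ± 0.103 and 0.940 ± 0.118 FPKM (SD, n = 9) and were not tested.

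Of 5 SMAD partners, 4 were tested and 0 passed. Ep300, a histone acetyltransferase that SMADs recruit, averaged 22.4 ± 0.716 FPKM in HO-rWNT5A and 18.2 ± 0.474 in RA (SD, n = 3 each; log2 difference 0.29 ± 0.075, limma adjusted p = 0.0591). Its relative Crebbp averaged 18.9 ± 0.663 in HO-rWNT5A and 16.5 ± 0.337 in RA (log2 difference 0.19 ± 0.060, limma adjusted p = 0.108). Smad4, the shared partner of SMAD2 and SMAD3 and chosen after its values were seen, had 35.4 ± 1.95 FPKM over all libraries (SD, n = 9).

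All 11 genes of inhibition and turnover were tested, and 0 passed. Ski and Skil encode co-repressors that bind SMADs. Ski averaged 43.3 ± 2.38 FPKM in HO and 36.7 ± 1.73 in RA (SD, n = 3 each; log2 difference 0.23 ± 0.057, limma adjusted p = 0.0723). Skil, itself a target of the pathway, averaged 53.0 ± 3.53 in HO-rWNT5A and 43.4 ± 0.844 in RA (log2 difference 0.28 ± 0.084, limma adjusted p = 0.0902). Pmepa1, which encodes a membrane protein that binds SMAD2 and SMAD3 away from the receptor, averaged 48.2 ± 3.35 in HO and 42.5 ± 1.29 in RA (limma adjusted p = 0.176). Usp15, which encodes a deubiquitinase of the pathway, averaged 14.8 ± 0.848 in HO-rWNT5A and 12.7 ± 2.53 in HO (limma adjusted p = 0.559).

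Of 8 genes of the activin branch, 5 were tested and 0 passed. Fst, encoding the activin-binding follistatin, averaged 41.4 ± 1.30 FPKM in HO-rWNT5A, 41.1 ± 6.96 in HO and 35.1 ± 2.99 in RA (SD, n = 3 each). Its limma adjusted p was 0.235 for HO-rWNT5A against RA and 0.317 for HO against RA. The related Fstl3 averaged 16.8 ± 0.641 in HO-rWNT5A and 19.1 ± 0.903 in RA (limma adjusted p = 0.222). Inha, encoding the inhibin alpha subunit, averaged 1.16 ± 0.234 in HO-rWNT5A, 0.902 ± 0.172 in HO and 1.25 ± 0.320 in RA. Its limma adjusted p was 0.702 for HO-rWNT5A against HO and 0.376 for HO against RA.

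Of 30 known target genes, 29 were tested and 0 passed, with log2 differences on both sides of 0. Snai1, a transcription factor of mesenchymal conversion, averaged 1.59 ± 0.239 FPKM in HO and 0.901 ± 0.186 in RA (SD, n = 3 each; log2 difference 0.445 ± 0.106, limma adjusted p = 0.0633). Junb, an AP-1 factor that many signals induce, averaged 78.6 ± 6.55 in HO-rWNT5A, 78.0 ± 9.62 in HO and 60.5 ± 3.67 in RA. The log2 difference of Junb was 0.37 ± 0.094 for HO-rWNT5A against RA (limma adjusted p = 0.0555). For HO against RA it was 0.36 ± 0.094 (limma adjusted p = 0.0883). Lox, the collagen cross-linking enzyme, averaged 30.2 ± 2.02 in HO-rWNT5A and 36.2 ± 1.94 in RA (log2 difference -0.255 ± 0.066, limma adjusted p = 0.0571). In HO-rWNT5A against HO, Klf10, an early TGF-beta response factor, averaged 14.0 ± 0.994 in HO-rWNT5A and 16.4 ± 1.56 in HO (limma adjusted p = 0.5001). Zeb2, another transcription factor of mesenchymal conversion, averaged 33.3 ± 1.67 in HO-rWNT5A, 29.9 ± 2.51 in HO and 35.5 ± 1.85 in RA. Its limma adjusted p was 0.547 for HO-rWNT5A against HO and 0.112 for HO against RA. The target Ccn2, a matrix-associated growth factor, was chosen after its values were seen. It had 1449 ± 132 FPKM over all libraries (SD, n = 9), and in HO against RA its limma adjusted p was 0.313.

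**Figure D4:**
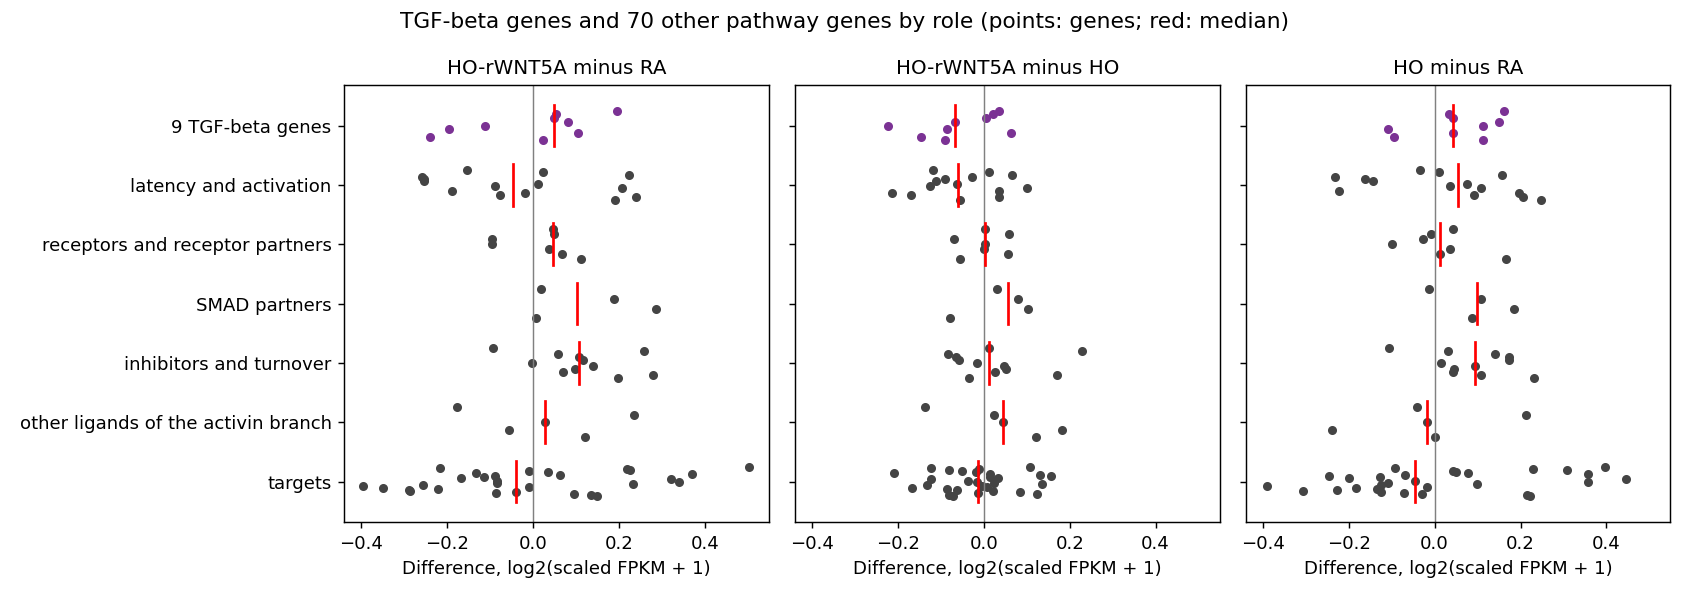
Difference (x axis, log2 of scaled FPKM + 1) of the 9 tested members (top row) and of 70 other pathway genes by role (rows below), for HO-rWNT5A minus RA, HO-rWNT5A minus HO and HO minus RA; points are genes and red lines medians. The 70 genes lie between -0.39 and 0.50, and the targets hold both ends of that range.

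Tgfbr1 had the smallest p of any member, and the 5 protein-coding genes most like it over the 9 libraries were named by Pearson's r on the log2 scale, among 11099 genes, as a description. They were 1190002N15Rik (0.973), Nras (0.970), Azin1 (0.969), Ero1l (0.948) and Aldh6a1 (0.945). Nras had 39.8, 37.1 and 39.0 FPKM in HO-rWNT5A, 38.6, 39.4 and 41.0 in HO and 43.0, 40.6 and 40.2 in RA. As with Tgfbr1, RA replicate 1 was the highest and HO-rWNT5A replicate 2 the lowest. The values of a library share its scaling, and these genes were picked for their r.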

How the data were processed

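RNA was sequenced from 9 libraries, 3 in each of the groups HO-rWNT5A, HO and RA. Per the labels' protocols, reads were trimmed (Skewer 0.2.2), mapped to an Ensembl genome (STAR 2.5.3a) and assembled into transcripts (StringTie 1.3.1, compared with gffcompare 0.9.9c). Builds mm10 and hg38, DESeq2 and FastQC 0.11.2 appear as well, per the submitters' processing notes. The authors deposited FPKM for 143043 transcripts, of which 141441 were found in GENCODE M21 (GRCm38). A further 910 Ensembl identifiers and 692 assembled transcripts were not, and stayed in under their own identifiers. FPKM was summed per gene, and libraries were scaled by the median ratio to the geometric mean (factors 0.945 to 1.04). Features with a mean of at least 1 FPKM were tested on log2(scaled FPKM + 1), which understates changes of low genes. The test was limma 3.58.1 in R 4.3.3 over all 9 libraries, with a variance trend, two-sided. In its check on simulated data the changes put in were larger than the members' differences, so changes of their size were not covered. Confidence intervals are limma's and unadjusted. Depth was read from the value that FPKM times length took most often among genes with 1 transcript. Few transcripts shared that value, so the depth is rough and no count test was run. Other software was matplotlib 3.10.9, numpy 2.4.6, pandas 2.3.3 and Python 3.11.15. The members and lists were chosen with earlier results of these data known. Genes were named by rule: all members, pathway genes past the threshold, the 2 of smallest p per role and comparison (given in part), Wnt5a, the 5 genes most like the member of smallest p, and transcripts with at least 10% of their gene. The alternatives tried were other pseudocounts, filters, scalings, variance models and samples, a replicate block and reference transcripts alone.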

Additional observations from a re-analysis of the deposited data

How the results depend on the processing

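In 23 alternatives per comparison, the members past limma's adjusted threshold stayed at 0 except in HO-rWNT5A against RA. There Tgfb2 and Tgfbr1 passed on FPKM as deposited (2 members), where 5.96% of all genes passed. Smad7 alone (1 member) passed with the 2 compared groups fitted alone, where 9.62% of all genes passed. It also passed with HO reduced to replicate 1 (log2 difference 0.196), where more genes passed than in the main fit, as given below. That alternative was chosen after seeing the data because HO had the widest spread. The median SD on the log2 scale was 0.123 in HO, against 0.083 in HO-rWNT5A and 0.074 in RA. Of 618 member values, 4 passed and 20 had the other sign, all of these below the threshold. With 1 library left out, the uncalled differences in HO against RA were -0.039 to 0.085 for Tgfb3 and 0.043 to 0.191 for Tgfb1. Member transcripts stayed at 0 in 12 alternatives. Tgfbi stayed under the depth needed for a fold change.

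The background moved more. In HO against RA the 273 genes became 69 without a filter, 56 with equal totals, 67 with the 2 groups alone, 116 with a replicate block, 23 with HO reduced to replicate 1, and 3 (without RA replicate 2) to 704 (without HO replicate 3) with 1 library left out. It was 26 without RA replicate 1, 16 without RA replicate 3, 107 without HO replicate 2, and 173, 118 and 147 without HO-rWNT5A replicates 1, 2 and 3. In HO-rWNT5A against HO the 1 gene became 0 without a filter and with HO reduced, 3 with the 2 groups alone, 2 with a replicate block and 1 to 27 with 1 library left out. The 27 came without HO replicate 3. In HO-rWNT5A against RA the 589 became 222 without a filter, 257 with equal totals, 1330 with the 2 groups alone, 1333 with HO reduced, and 125 (without RA replicate 1) to 1017 (without HO replicate 3) with 1 library left out. With a replicate block it was 393. Higher and lower calls were 103 and 179 in HO against RA on FPKM as deposited, 26 and 30 with equal totals and 105 and 96 with the protein-coding total, beside 167 and 106. In HO-rWNT5A against RA they were 209 and 615 as deposited and 93 and 164 with equal totals, beside 331 and 258.

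Pathway genes, 0 in each comparison, became 1 without a variance trend in HO against RA, beside 1.47% of all genes. With 1 library left out they were 0 to 5 there (5 without HO replicate 3, beside 5.09% of all genes). In HO-rWNT5A against RA they became 4 with a minimum of 5 FPKM and 2 as deposited, beside 6.07% and 5.96% of all genes. They were 1 with equal totals, 2 with the protein-coding total and 1 with quantile normalization, beside 1.86%, 3.94% and 5.17%. With the 2 groups alone there were 10, beside 9.62% of all genes. With HO reduced to replicate 1 pathway genes also passed, and the background rose too, as given above. With 1 library left out they were 0 to 8 (8 without HO replicate 3, 2 without HO replicate 1), beside 7.35% and 4.53% of all genes in those 2 fits. The causes were not tested. Same-numbered libraries deviated together weakly (correlations -0.118 to 0.28, over 0.1 in 3 of 9 pairs, beside -0.252 to 0.172 for other numbers), so the numbers were not taken as pairs. The replicate block left the members and the other pathway genes at 0.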
